A study of Mus musculus with 6 samples.

Results

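The 8 genes described here encode the Piwi proteins Piwil1, Piwil2 and Piwil4 and 5 proteins that work with them in making or using piRNAs, namely Mov10l1, Gpat2, Exd1, Mael and Gtsf1. Their probes were found by gene symbol alone, through current or older names in the platform annotation, among 16390 different symbols. The list of genes itself was drawn up with earlier results of these data known. Each gene had 1 probe among the 23473 of the array, and all 8 probes were listed on all 6 arrays. Gtsf1 stood in the annotation as 1700006H03Rik, Gpat2 as A530057A03Rik and Exd1 as Exdl1.

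Piwi proteins are Argonaute proteins of the germ line that carry piRNAs, small RNAs that guide them to transposon transcripts and other RNAs. In the testis, long single-stranded precursors are handed to the processing machinery on mitochondria and in cytoplasmic germ granules, where the helicase MVH also lies. Loss of the pathway in male mice releases transposons and stops spermatogenesis.

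The material was testis of C57/BL6 mice, with no age given in the sources used here, and 3 groups of 2 one-colour arrays were compared. RNA of the MVH group came down with an antibody against MVH (DDX4), an RNA helicase of germ cells, and RNA of the IgG group came down with normal rabbit IgG from lysate treated in the same way. The WCE group was total RNA taken without antibody and is called total RNA here. Per the labels' protocols a lysate was made from a pair of testes, and nothing in the labels ties arrays 1 and 2 of a group to different animals. The p-values therefore reflect only how far these samples spread, and that spread may be technical. Whole testis mixes cell types, and the groups differ in how RNA was recovered. A difference between them therefore cannot be assigned to a cell type, to cell number or to RNA per cell.

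Each array listed 22090 to 22965 probes with a value. Across the 21241 probes listed on all arrays, log2 values correlated at 0.978 to 0.988 between the 2 arrays of a group. Between an MVH and a total RNA array the correlation was 0.978 to 0.985. It was 0.969 to 0.972 between IgG and total RNA arrays, and 0.957 to 0.963 between MVH and IgG arrays. Within groups, the IgG precipitates differed most from each other, their log2 difference having an SD of 0.60 over probes. IgG precipitate 2 had a deposited median of 20.8 against 30 on the other arrays and the most blank probes, 1383. Intensities below are scaled to a median of 30 on each array, which matters mainly for that array. They give the share of a transcript relative to the array, not the amount of RNA recovered, and a probe's level is not set against that of another probe. The 9 meiotic prophase and 9 round spermatid markers were listed on every array.

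Between the MVH and IgG precipitates Gpat2 and Mov10l1 were lower with MVH and passed the test, and the other 6 transcripts did not pass. Of these, the differences were -0.91 for Piwil2, 0.93 for Mael and 0.75 for Gtsf1, with MVH and IgG arrays that did not overlap. Exd1, Piwil1 and Piwil4 differed by at most 0.37 on the log2 scale. The comparison of the 2 precipitates asks which RNAs came with MVH beyond what came with unspecific IgG. A probe was called where limma's Benjamini-Hochberg adjusted p over all 21574 probes tested was under 0.05. Of the 8 genes, 0 were called higher, against 3.82% of all probes, and 2 were called lower, Gpat2 and Mov10l1, against 4.15%. At an unadjusted p under 0.05 there were 5 of 8, against 25.5% of all probes. The MVH arrays lay above both IgG arrays for 3 genes (Mael, Gtsf1 and Piwil1), against 29.9% of all probes, and below both for 3 (Gpat2, Mov10l1 and Piwil2), against 23.8%. The median log2 difference of the 8 was -0.13, with a range from -2.07 to 0.93, and that of all probes 0.07. The median size of the difference, whatever its sign, was 0.83 for the 8 and 0.40 for all probes.

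The transcript with the largest difference was Gpat2, which encodes a mitochondrial protein of the glycerol-3-phosphate acyltransferase family that binds Piwil2 and is needed for piRNA production. Its scaled intensity was 262 and 290 in the MVH precipitates, 1483 and 907 in the IgG precipitates, and 369 and 439 in total RNA. Both MVH arrays lay below both total RNA arrays, which in turn lay below both IgG arrays. Gpat2 was 4.2-fold lower with MVH than with IgG (-2.07 ± 0.31 on the log2 scale, SE, 2 arrays a group, 95% interval -2.79 to -1.36, limma adjusted p = 0.0172), a lower value than at all but 0.241% of the probes tested. Its call was lost without either MVH array (adjusted p = 0.0735 and 0.103) and without either total RNA array (0.0533), although the difference held between -2.43 and -1.72 whichever array was left out.

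Mov10l1, an RNA helicase that binds piRNA precursors and passes them on for cleavage, was likewise highest with IgG. Its scaled intensity was 35.2 and 30.2 in the MVH precipitates, 88.6 and 65.5 in the IgG precipitates, and 29.0 and 35.5 in total RNA. On the MVH and total RNA arrays the probe was thus near the array median of 30. The MVH and total RNA arrays overlapped and both lay below the IgG arrays. Mov10l1 was 2.34-fold lower with MVH than with IgG (-1.22 ± 0.29, 95% interval -1.88 to -0.57, limma adjusted p = 0.0394). This call was lost with no centring (-0.96, adjusted p = 0.215), where the median of all probes moved from 0.07 to 0.34, and without MVH precipitate 1 (0.121), MVH precipitate 2 (0.189), IgG precipitate 1 (0.112) or either total RNA array (0.0794).

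None of the 3 Piwi transcripts passed the test in any of the 3 comparisons as reported, and they were not tested against each other. Piwil2, also known as MILI, acts from fetal germ cells into the adult testis. Its scaled intensity was 493 and 661 on the MVH arrays, 1078 and 1077 on the IgG arrays, and 454 and 552 on the total RNA arrays, so that the IgG arrays lay above the others. The difference between the precipitates was -0.91 ± 0.28 and did not pass the threshold (adjusted p = 0.0824).

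Piwil1, also known as MIWI, is the Piwi protein of pachytene spermatocytes and round spermatids. Its probe was near the array median, at 38.9 and 40.4 on the MVH arrays, 38.8 and 24.2 on the IgG arrays, and 27.9 and 35.4 on the total RNA arrays. The MVH arrays were the highest by a narrow margin over IgG precipitate 1, and the arrays of the IgG precipitate spanned those of total RNA. The difference between the precipitates was 0.37 ± 0.31 (adjusted p = 0.515) and that between the MVH precipitate and total RNA 0.34 ± 0.31 (0.882).

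Piwil4, also known as MIWI2, directs transposon methylation in fetal germ cells. It had scaled intensities of 399 and 385 on the MVH arrays, 443 and 385 on the IgG arrays, and 589 and 649 on the total RNA arrays. Both precipitates lay below total RNA and overlapped with each other, a pattern that no other of the 8 genes had. The differences from total RNA were -0.66 ± 0.26 for the MVH precipitate (adjusted p = 0.501) and -0.58 ± 0.26 for the IgG precipitate (0.287), and neither passed. They share the total RNA arrays.

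Mael and Gtsf1 stood the other way round from Gpat2 and Mov10l1, lowest in the IgG precipitate. Mael encodes a germ granule protein with an HMG-box-like domain that is needed for transposon silencing. Its scaled intensity was 23251 and 23010 on the MVH arrays, 10765 and 13753 on the IgG arrays, and 24254 and 28754 on the total RNA arrays. The IgG arrays lay below the rest, and the MVH precipitate differed from the IgG precipitate by 0.93 ± 0.28 (adjusted p = 0.0743).

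Gtsf1, a small zinc finger protein that helps Piwi proteins cleave their targets, had scaled intensities of 12416 and 15365 on the MVH arrays, 6720 and 10000 on the IgG arrays, and 14792 and 16676 on the total RNA arrays. Again both IgG arrays were the lowest, and the MVH arrays overlapped those of total RNA. The difference between the precipitates was 0.75 ± 0.30 (adjusted p = 0.159).

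Exd1, an exonuclease-domain protein that binds Tdrd12 and supports piRNA production for Piwil4, showed no ordering of the groups. Its scaled intensity was 284 and 303 on the MVH arrays, 436 and 257 on the IgG arrays, and 294 and 272 on the total RNA arrays. The IgG arrays spanned all the others. The difference between the precipitates was -0.19 ± 0.32, with a 95% interval from -0.91 to 0.53.

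**Figure D1:**
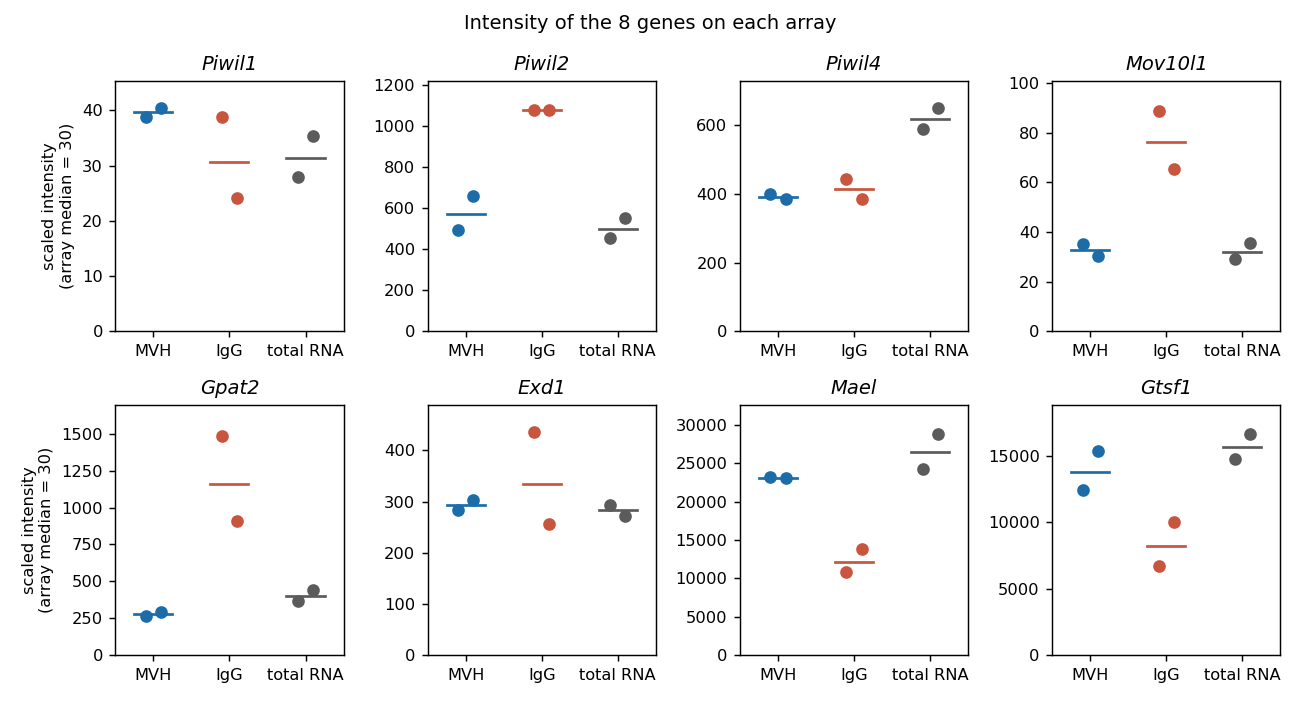
Scaled intensity (array median 30, linear axis from 0, a separate range for each gene) of the 8 genes in the MVH precipitates (blue), IgG precipitates (red) and total RNA (grey), with a point for each array and a line at the geometric mean of the 2 arrays. Gpat2, Mov10l1 and Piwil2 are highest in the IgG precipitates, at 907 and 1483 for Gpat2, whereas Mael and Gtsf1 are lowest there.

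RefSeq's promoter table of assembly GRCm38.p6 held 7 of the 8 genes, with 8 promoters. The 250 bases before the annotated start are shown for the genes at the 2 ends of the range, Gpat2 and Mov10l1, highest with IgG, and Mael and Gtsf1, lowest with IgG. Capitals mark the CCAAT box, CCAAT or ATTGG on the opposite strand, and the MYB core, TAACNG or CAACNG or on the opposite strand CNGTTA or CNGTTG. MYBL1 is a MYB factor known to drive piRNA pathway genes in spermatocytes. The arrays measured recovered RNA and hold no value on promoter use.
Gpat2, chr2:127424949-127425198, plus strand: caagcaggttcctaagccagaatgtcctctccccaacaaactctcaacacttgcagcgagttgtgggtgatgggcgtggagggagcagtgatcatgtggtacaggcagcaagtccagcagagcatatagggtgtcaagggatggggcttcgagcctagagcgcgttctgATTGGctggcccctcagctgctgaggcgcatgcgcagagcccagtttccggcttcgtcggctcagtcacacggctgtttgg
Mov10l1, chr15:88982744-88982993, plus strand: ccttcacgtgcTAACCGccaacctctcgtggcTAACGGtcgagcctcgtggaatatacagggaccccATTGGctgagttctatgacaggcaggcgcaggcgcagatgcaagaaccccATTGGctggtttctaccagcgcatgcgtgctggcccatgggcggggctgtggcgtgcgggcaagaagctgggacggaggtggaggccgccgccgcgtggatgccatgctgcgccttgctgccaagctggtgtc
Mael, chr1:166238745-166238994, minus strand: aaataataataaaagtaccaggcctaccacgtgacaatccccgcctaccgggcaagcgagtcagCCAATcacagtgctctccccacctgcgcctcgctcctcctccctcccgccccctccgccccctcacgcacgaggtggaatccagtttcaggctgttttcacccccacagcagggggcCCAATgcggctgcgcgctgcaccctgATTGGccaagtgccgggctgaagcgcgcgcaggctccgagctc
Gtsf1, chr15:103430428-103430677, minus strand: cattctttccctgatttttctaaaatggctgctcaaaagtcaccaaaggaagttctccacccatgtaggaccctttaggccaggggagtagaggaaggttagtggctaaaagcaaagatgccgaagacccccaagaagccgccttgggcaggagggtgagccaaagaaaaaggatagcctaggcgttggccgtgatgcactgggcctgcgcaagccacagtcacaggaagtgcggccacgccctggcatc

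Gpat2 had 1 CCAAT box and no MYB core in this window, Mov10l1 had 2 of each, Mael had 3 CCAAT boxes and no MYB core, and Gtsf1 had neither. No match of one kind overlapped a match of the other. Over all 8 promoters, 5 held a CCAAT box and 3 a MYB core, the latter in Mov10l1, Piwil1 and 1 of the 2 promoters of Piwil4. Of all 32851 promoters of the table, 33.8% held a CCAAT box and 43.1% a MYB core in the same window. In 7 of the 8 the number of CpG pairs was above the median of 6 for all promoters, with 11 in Gpat2, 19 in Mov10l1, 18 in Mael and 7 in Gtsf1.

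Piwil2 and Mael passed the threshold under other settings. With an offset before log2, without the dimmest 25% of probes, and with a variance trend, limma called Piwil2 lower (adjusted p = 0.0423, 0.0401 and 0.0376) and Mael higher (0.0273, 0.035 and 0.0193). With a fit of only the 4 arrays compared, 0 of the 8 were called.

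Total RNA gives the share of each transcript in the tissue, and none of the 8 passed the test between it and the MVH precipitate. Limma called 0 of the 8 higher and 0 lower, against 0.00459% and 0.00918% of the 21793 probes tested. At an unadjusted p under 0.05 there was 1 of 8, Piwil4, against 8.93% of all probes. The log2 differences ran from -0.66 for Piwil4 to 0.34 for Piwil1, and their 95% intervals reached from -1.26 to 1.05. Mov10l1 differed by 0.02 ± 0.29, Exd1 by 0.05 ± 0.32 and Gpat2 by -0.54 ± 0.31 (adjusted p = 0.698). Both MVH arrays lay above both total RNA arrays for 1 gene, Piwil1, against 18.7% of all probes, and below them for 3, Piwil4, Gpat2 and Mael, against 21.6%. Over all probes the median size was 0.24, against the 0.19 of the 8.

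The IgG precipitate shows which RNAs come down without the MVH antibody. Set against total RNA, its log2 differences had a median size of 1.02 for the 8 and 0.35 for all probes, and none passed. Gpat2 differed by 1.53 ± 0.31 (adjusted p = 0.0683), Mov10l1 by 1.25 ± 0.29 (0.0827) and Piwil2 by 1.11 ± 0.28 (0.0991). Mael differed by -1.12 ± 0.28 (0.0932) and Gtsf1 by -0.94 ± 0.30 (0.154). Limma called 0 of the 8 higher and 0 lower, against 0.00934% and 0% of the 21413 probes tested, and 5 of 8 had an unadjusted p under 0.05, against 18.2% of all probes. The IgG arrays lay above both total RNA arrays for 3 genes, against 20.0% of all probes, and below them for 3, Mael, Gtsf1 and Piwil4, against 29.6%. With an offset, without the dimmest 25% of probes or with a variance trend, Gpat2, Mov10l1 and Piwil2 were called higher and Mael lower. This comparison and that of the precipitates share the IgG arrays, so a shift on those arrays enters both with opposite signs.

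**Figure D2:**
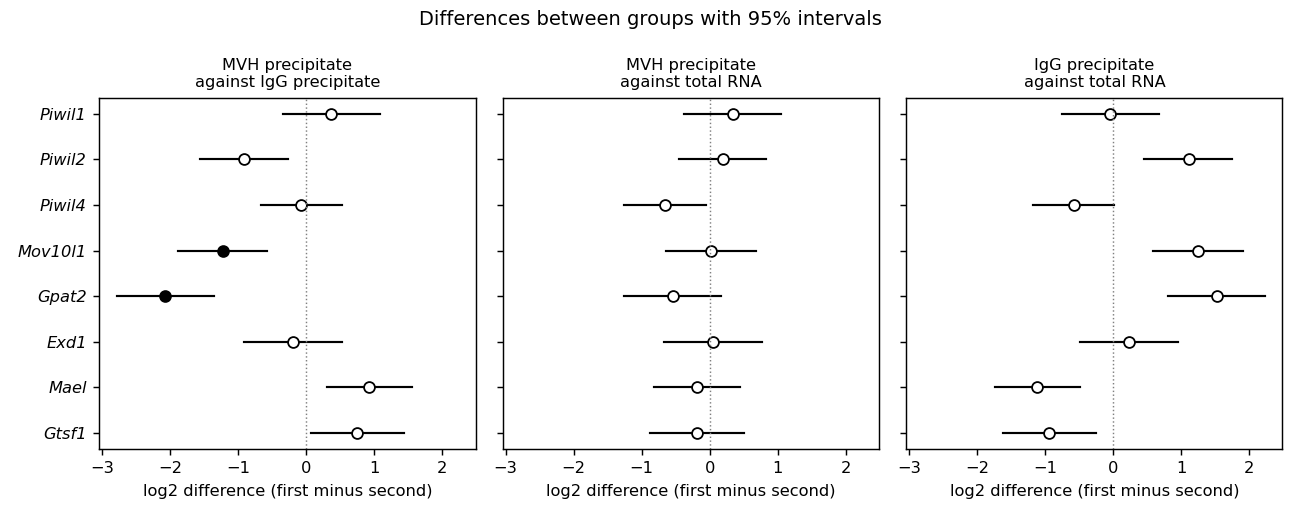
Log2 difference of each of the 8 genes in the 3 comparisons (first group minus second, points) with limma's 95% intervals (lines); filled points passed an adjusted p of 0.05. Only Gpat2 (-2.07) and Mov10l1 (-1.22) in the left panel are filled, and the middle panel, MVH precipitate against total RNA, has the points nearest to 0, from -0.66 to 0.34.

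Replicate arrays bounded what could be seen. For the 8 genes the 2 IgG arrays differed by 0.00 (Piwil2) to 0.77 (Exd1) on the log2 scale, and the 2 MVH arrays by 0.02 (Mael) to 0.42 (Piwil2). The total RNA arrays differed by 0.11 (Exd1) to 0.34 (Piwil1). Over all probes the median difference was 0.37 between the IgG arrays, 0.30 between the MVH arrays and 0.29 between the total RNA arrays. By definition, as many probes lie above a median as below it. Between the IgG arrays Exd1, Gpat2 (0.71), Piwil1 (0.68), Gtsf1 (0.57) and Mov10l1 (0.44) lay above it. Between the MVH arrays Piwil2 and Gtsf1 (0.31) did so. Between the total RNA arrays Piwil1 did so, and Mov10l1 was at 0.29. For Gpat2, Gtsf1 and Mov10l1 the 2 IgG arrays still lay apart from all the others, and for Exd1 and Piwil1 they did not.

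Some marker lists of testis cell types, germ cells among them, differed between these groups. Of all probes tested between the precipitates, 3.82% were called higher and 4.15% lower, to be set beside the marker counts. The summed scaled intensity of 6 Leydig cell probes was 494 to 512 with MVH, 1888 to 3004 with IgG and 662 to 1134 in total RNA, with 0 called higher and 4 lower of 6 between the precipitates and a median log2 difference of -1.93. For spermatogonial markers (7 probes listed on all arrays) the sums were 2902 to 3216, 6458 to 9503 and 3902 to 4160, with 1 higher and 2 lower of 7 and a median of -0.73. For 3 peritubular and vascular probes they were 331 to 530, 1455 to 3144 and 394 to 485, with 0 higher and 2 lower of 3 and a median of -1.51, and another 2 such probes were blank on some array. Round spermatid marker sums were at 70306 to 94535 with MVH, 41628 to 45042 with IgG and 52072 to 65742 in total RNA, with 4 higher and 0 lower of 9 and a median of 0.97.

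Sums of the 9 meiotic prophase markers overlapped between the groups, at 1764 to 2513, 2047 to 2449 and 2036 to 2314, with 1 higher and 1 lower and a median of -0.09. The 8 Sertoli cell probes summed to 3388 to 3485, 5373 to 6037 and 4526 to 4807, with 0 called either way. Their median was 0.07 between the precipitates and -0.17 between the IgG precipitate and total RNA. The 4 macrophage and blood probes summed to 82 to 89, 66 to 74 and 80 to 89, with 0 called and a median of 0.45. The table lists no value of 0. Gpat2, Mov10l1 and Piwil2 were thus highest in the same group as the Leydig, spermatogonial, peritubular and Sertoli sums. The Sertoli sum was lower with MVH than with IgG, although the median difference of its probes was 0.07. Mael and Gtsf1 were lowest in the same group as the round spermatid sum and the macrophage and blood sum. The part of cell type in these differences was not tested.

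Other genes of the pathway and of germ granules were taken from a list of 31, of which 22 had a probe, 23 probes in all. Between the precipitates 3 probes were called higher and 3 lower of 23, against 3.82% and 4.15% of all probes tested. The median log2 difference of the 23 was -0.04, against 0.07 for all probes. Ddx25, a testis helicase of germ granules, was the largest, at 959 and 1886 on the MVH arrays, 279 and 199 on the IgG arrays, and 488 and 632 on the total RNA arrays (log2 2.51 ± 0.38, limma adjusted p = 0.0172). Kif17, a kinesin, had intensities of 433 and 480, 90.3 and 125, and 244 and 183 in the same groups (2.10 ± 0.30, adjusted p = 0.0166). For both, the MVH arrays lay above total RNA and the IgG arrays below it.

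Rnf17, a Tudor domain protein of germ cell granules, was also called higher (1.94 ± 0.45, adjusted p = 0.0377), but was dim and spread, at 22.0 and 57.7 on the MVH arrays, 11.5 and 7.5 on the IgG arrays, and 12.8 and 10.1 on the total RNA arrays. Tex19.1, a germ cell protein that restrains transposons, was called lower (-1.63 ± 0.35, adjusted p = 0.0315), at 46.7 and 36.1 on the MVH arrays, 176 and 91.4 on the IgG arrays, and 44.8 and 44.1 on the total RNA arrays. Its MVH and total RNA arrays lay close together below the IgG arrays, as those of Mov10l1 did.

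The other 2 called genes were named with their values already seen. Tdrd5, a Tudor domain protein of germ granules, was at 73.3 and 77.8 on the MVH arrays, 244 and 221 on the IgG arrays, and 55.7 and 68.2 on the total RNA arrays (-1.62 ± 0.27, adjusted p = 0.0181). Tex15, which acts with Piwil4 in transposon methylation, was at 203 and 267, 529 and 611, and 92.6 and 113 (-1.29 ± 0.29, adjusted p = 0.033), so that both precipitates lay above total RNA. These 6 calls fell to 0 without MVH precipitate 2 or either total RNA array, to 2 without MVH precipitate 1, to 3 without IgG precipitate 1 and to 4 without IgG precipitate 2.

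The 2 probes of Henmt1, the methyltransferase that protects piRNA ends, disagreed and were singled out after their values were seen. Probe M200009989 was at 140 and 168 with MVH against 103 and 68.1 with IgG (0.88 ± 0.32, adjusted p = 0.128), and probe M400003853 at 25.0 and 22.9 against 47.5 and 42.3 (-0.90 ± 0.26, adjusted p = 0.0682). Which of them gives the level of the full transcript was not tested. Ddx4, which encodes MVH, differed by 0.05 ± 0.30 between the precipitates (adjusted p = 0.944) and by 0.48 ± 0.30 between the MVH precipitate and total RNA (0.736). Against total RNA, limma called 0 of the 23 probes in either precipitate. Of all probes tested, only 3 were called for MVH and 2 for IgG. The medians of the 23 were 0.20 for MVH and 0.21 for IgG, against -0.02 and -0.10 for all probes.

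**Figure D3:**
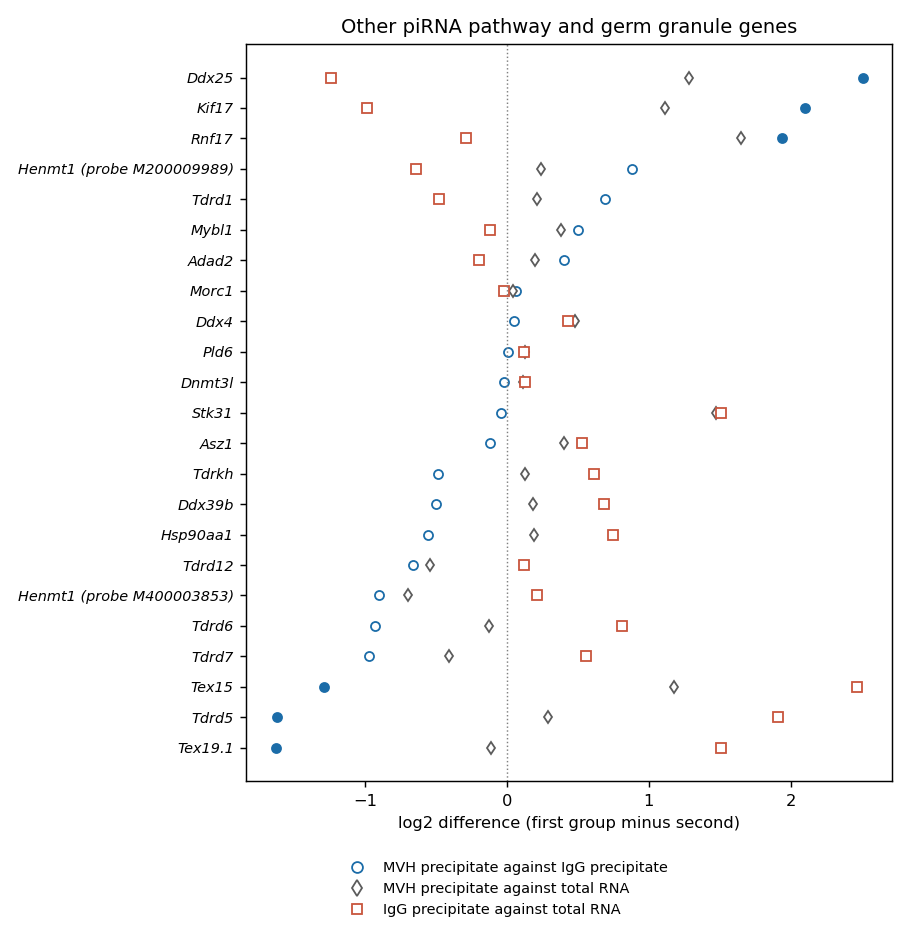
Log2 difference of the 23 probes of other piRNA pathway and germ granule genes in the 3 comparisons (first group minus second; circles, MVH against IgG precipitate; diamonds, MVH precipitate against total RNA; squares, IgG precipitate against total RNA), ordered by the first; filled symbols passed an adjusted p of 0.05. Ddx25, Kif17 and Rnf17 are filled at the top and Tex15, Tdrd5 and Tex19.1 at the bottom, and the 2 probes of Henmt1 lie on opposite sides of 0.

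The genes whose pattern over the 6 arrays was most like that of the called members were found by the root mean square difference of log2 values, each reduced by its mean, over 14792 named probes. Nearest to Gpat2 were Alg1, a mannosyltransferase of N-glycan assembly (0.14), the sorting nexin gene Snx11 (0.15) and the F-box gene Fbxw8 (0.16). Alg1 was at 139 and 147 on the MVH arrays, 588 and 432 on the IgG arrays, and 188 and 230 on the total RNA arrays. Nearest to Mov10l1 were Polk, a translesion DNA polymerase (0.08), Cpsf2, of the complex that cleaves mRNA 3′ ends (0.09), and the nucleolar gene Surf6 (0.09). Polk was at 77.6 and 70.7, 183 and 147, and 61.6 and 70.0 in the same groups. None of these 6 belongs to the piRNA list, and the distances are a description with no test.

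**Figure D4:**
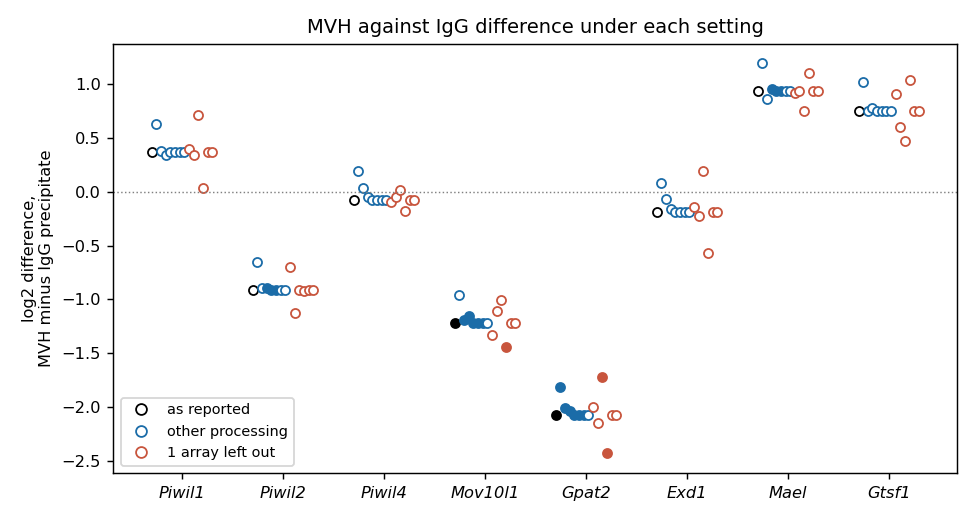
Log2 difference of each of the 8 genes between the MVH and IgG precipitates as reported (black), under other processing (blue) and with 1 array left out (red); filled points passed an adjusted p of 0.05. Gpat2 stays between -2.43 and -1.72 and Mov10l1 between -1.44 and -0.96, with calls that come and go, and Exd1 and Piwil4 cross 0.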

How the data were processed

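Mouse testis RNA from MVH and IgG precipitates and total RNA was measured on 6 one-colour arrays, 2 per group. Amplified aminoallyl aRNA carried the Cy5 dye, per the labels' protocols. Protocol text on tumour samples was set aside. The authors deposited linear intensity values, 1 per probe. Their scanner, background correction, scaling and treatment of blanks: not given in the sources used here.

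Names were read from the platform annotation (16631 probes with 1 symbol, 0 with several, 6842 with none), updated through synonyms of RefSeq's GRCm38.p6 table: 12622 were current, 3947 were updated and 62 were not matched. Probe sequences were not used here.

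Intensities were converted to log2 and centred on each array's median. Limma 3.58.1 (R 4.3.3, lmFit and eBayes) fitted 1 mean per group over the 6 arrays, with 3 residual degrees of freedom and a prior of 5.77. A probe was tested where all 4 arrays compared had a value, and p-values (two-sided) were adjusted by Benjamini-Hochberg over all probes tested, with a threshold of 0.05. The fitting steps were run on simulated data in which all probes had the same spread, which does not test the reliability of the calls made here. The number of arrays limits the precision. Plots used matplotlib 3.10.9.

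The members and lists were chosen with earlier results of these data known. The text names all members, Ddx4, up to 4 called genes of the pathway list per comparison, and the 3 genes nearest to each called member, passing over identifiers without a descriptive symbol; other names are said to be chosen after their values were seen. The alternatives were no centring, quantile normalization, an offset of 2.7 before log2, leaving out the dimmest 25% of probes, a variance trend with robust estimation, a fit of the 4 arrays compared, the array number as a block, and each array left out.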

Additional observations from a re-analysis of the deposited data

How the results depend on the processing

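Each of the 8 genes kept its direction in each comparison under the settings run, except as follows. Between the precipitates Piwil4 became 0.19 and Exd1 0.08 with no centring, and Piwil4 0.03 with quantile normalization. With 1 array left out, Piwil4 ranged from -0.18 to 0.02 and Exd1 from -0.57 to 0.19. Between the MVH precipitate and total RNA, Gtsf1 became 0.06 with quantile normalization, and with 1 array left out Piwil2 ranged from -0.02 to 0.40, Exd1 from -0.0017 to 0.11 and Mov10l1 from -0.12 to 0.17. Between the IgG precipitate and total RNA, Exd1 became -0.02 with no centring, and with 1 array left out it ranged from -0.14 to 0.62 and Piwil1 from -0.38 to 0.30. None of these values was called in any setting.

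The calls moved more than the values. Between the precipitates, 2 of the 8 genes were called, 1 with no centring, 4 with an offset, 4 without the dimmest probes, 4 with a variance trend, 0 with only the 4 arrays compared and 0 to 2 with 1 array left out. Over all probes 1719 were called, and 823, 2849, 3116, 3143, 0 and 0 to 1327 in the same settings; the split of higher and lower calls was 824 and 895, and 702 and 121 with no centring. Of the other pathway probes 6 were called, 3 with no centring and 0 with only the 4 arrays. The count was 7 with quantile normalization, 8 with an offset, 9 without the dimmest probes and 9 with a variance trend. The total RNA arrays enter the comparison of precipitates only through the spread, and leaving out either gave the same adjusted p-values for Gpat2 and Mov10l1 as the fit of the 4 arrays.

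Between the MVH precipitate and total RNA, 3 probes were called in all, 19 with no centring, 95 with an offset, 123 without the dimmest probes, 180 with a variance trend, 6 with only the arrays compared and 0 to 10 with 1 array left out. None of the 8 genes was among them in any setting, and 1 other pathway probe was, without the dimmest probes or with a variance trend. Between the IgG precipitate and total RNA, 2 probes were called in all, 5 with no centring, 141 with quantile normalization, 962 with an offset, 1183 without the dimmest probes, 1253 with a variance trend, 1 with only the arrays compared and 0 to 58 with 1 array left out. Of the 8 genes 4 were called with an offset, 4 without the dimmest probes and 4 with a variance trend, and of the other pathway probes 2 with quantile normalization, 4, 4 and 5 in those settings, and 0 to 1 with 1 array left out. The cause was not tested.

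Arrays share the numbers 1 and 2 across groups. Deviations of arrays with the same number correlated at 0.16, 0.16 and 0.10 between the 3 pairs of groups, which does not show that the numbers pair the samples. With the array number as a replicate block, 2 of the 8 genes were called between the precipitates, as without it, and 0 in the other comparisons. Between the IgG precipitate and total RNA, 150 probes were then called in all, 2 of them of the other pathway list.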
